A study of Mus musculus with 15 samples.

Results

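Regulatory T cells (Treg cells) are CD4+ T cells that restrain other immune cells, and a small set of genes is commonly used to recognise them. The expression of 8 such genes was followed in invariant natural killer T (iNKT) cells from 4 lymphoid tissues. Foxp3 encodes the forkhead transcription factor that defines Treg cells, and Ikzf2 (Helios) and Ikzf4 (Eos) encode zinc finger factors of the Ikaros family. Nrp1 (neuropilin-1, a co-receptor for semaphorins and VEGF), Izumo1r (folate receptor 4) and Gpr83 (a G protein-coupled receptor) encode surface proteins. Lrrc32 (GARP, which holds latent TGF-β on the cell surface) and Itgb8 (the β8 integrin chain, which pairs with the αv chain to release active TGF-β) encode parts of the TGF-β activation machinery. The genes were chosen as a named list, with earlier results of these data known, and all 8 of the 8 were found among the 48795 genes listed for each sample.

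iNKT cells are T cells with a nearly invariant TCR α-chain that recognises lipids on CD1d, and are divided by their transcription factors into NKT1, NKT2 and NKT17 subsets. In conventional CD4+ T cells Foxp3 holds the Treg programme in place, Helios and Eos act with it, and cells that lack Foxp3 can still express the surface proteins of the list. None of these genes is restricted to Treg cells. Nrp1 is also found on endothelium and plasmacytoid dendritic cells, Lrrc32 on endothelium and platelets, and Itgb8 on dendritic cells.

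The iNKT cells had been sorted as TCRβ+ cells stained by a CD1d tetramer loaded with PBS57, without B220, CD11b, CD11c or CD8, and subjected to RNAseq. All samples came from WT C57BL/6 mice aged 6 weeks, with no treatment named in the labels, with 4 samples each from thymus, spleen and mesenteric lymph node (mLN) and 3 from inguinal lymph node (iLN, replicates 2, 3 and 4). Replicates 3 and 4 form the first batch (8 samples) and replicates 1 and 2 the second batch (7 samples). The labels do not say whether a sample is 1 mouse or a pool, so p-values measure the spread between these samples. Lymph nodes (LNs) were digested with enzymes before sorting, whereas spleen and thymus were only pressed through a strainer, so that tissue and preparation cannot be told apart in any comparison of LNs with spleen or thymus.

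Total counts per sample lay between 4080550 and 8670570 in 14 samples and were 1152702 in thymus replicate 2. In that library 3 counts correspond to 2.21 CPM (counts scaled to the library total, with TMM factors), against 0.296 to 0.826 CPM in the other samples. The summed level of 8 genes expressed in iNKT cells (Zbtb16, Trav11, Trav11d, Cd3e, Cd3g, Klrb1c, Slamf6 and Il2rb) was between 2486 and 4331 CPM in every sample, although Trav11d was at 0 in all spleen and mLN samples. Its largest parts were Cd3e and Il2rb (means of 1098 and 1383 CPM in spleen). These are not restricted to iNKT cells, so the sum cannot tell iNKT cells from other T cells. Zbtb16 and Trav11 were at means of 121 and 260 CPM in thymus, 137 and 180 in spleen, 198 and 207 in mLN and 229 and 208 in iLN. B cell genes summed to 116 CPM in spleen replicate 1 and to at most 15.6 CPM elsewhere. Red cell genes were at 22.4 to 117 CPM in spleen and at most 13.8 CPM elsewhere, CD8 T cell and thymocyte genes at 13.5 to 64.7 CPM in thymus and at most 13.5 CPM elsewhere, and myeloid genes at 1.73 to 53.3 CPM, highest in a spleen sample. The part of these other cells in the levels of the 8 genes was not tested. In these bulk samples fewer cells of a type and less RNA per cell cannot be told apart.

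Gpr83 and Izumo1r are neighbours on mouse chromosome 9 (GRCm38), where Gpr83 lies at chr9:14860210-14870789 on the plus strand and Izumo1r at chr9:14885814-14903949 on the minus strand. They face each other, with 15024 bases between them. Nrp1 lies at chr8:128358604-128503363 (plus strand), Ikzf2 at chr1:69531214-69687245 (minus strand), Ikzf4 at chr10:128630843-128645991 (minus strand), Foxp3 at chrX:7573644-7595245 (plus strand), Lrrc32 at chr7:98489283-98502181 (plus strand) and Itgb8 at chr12:119158022-119238802 (minus strand). All 8 are protein-coding. The upstream sequences of Izumo1r, Gpr83 and Nrp1 are shown because all 3 genes were called higher in LNs and have an entry in the RefSeq promoter table (GRCm38.p6). Each stretch starts 250 bases before the RefSeq start and leaves out any base of an annotated exon, which shortens that of Izumo1r to 68 bases. The stretch of Nrp1 is upstream of its RefSeq start only. It lies inside the gene span given above, in no annotated exon. Capitals mark matches on either strand to the motifs that were searched.
Izumo1r, chr9:14903950-14904017, minus strand: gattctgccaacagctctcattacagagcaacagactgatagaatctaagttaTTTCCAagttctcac
Gpr83, chr9:14859960-14860209, plus strand: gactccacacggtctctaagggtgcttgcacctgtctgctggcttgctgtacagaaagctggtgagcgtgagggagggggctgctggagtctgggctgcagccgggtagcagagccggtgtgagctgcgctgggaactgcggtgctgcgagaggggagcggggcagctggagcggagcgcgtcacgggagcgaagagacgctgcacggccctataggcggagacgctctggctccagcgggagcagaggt
Nrp1, chr8:128358823-128359072, plus strand: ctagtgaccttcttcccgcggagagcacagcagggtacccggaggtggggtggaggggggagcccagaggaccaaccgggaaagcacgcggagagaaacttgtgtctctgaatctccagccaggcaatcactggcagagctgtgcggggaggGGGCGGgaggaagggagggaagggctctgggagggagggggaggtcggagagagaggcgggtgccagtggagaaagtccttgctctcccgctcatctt

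Over the whole window of 250 bases, Gpr83 held 18 CpG dinucleotides (GC content 66.8%), Nrp1 held 11 (64.4%) and Izumo1r held 2 (50%), against medians of 6 and 52.4% over the 32851 promoters of the table. The motifs searched were the forkhead letters TGTTTAC (present in 3.17% of all windows), the AP-1 letters TGANTCA (6.75%), the GC box GGGCGG (32.7%), the TATA letters TATAAA (12.4%), the ETS letters CCGGAAG (6.91%) and the NFAT letters TGGAAA (18.6%). Izumo1r held 1 match, to the NFAT letters on the opposite strand, from -197 to -192, counted back from the RefSeq start. Nrp1 held 1 GC box from -98 to -93, and in the window of Gpr83 there was no match to any of the 6. The letters of the forkhead motif were not in any of the 3 windows. These matches are descriptions of the sequence and were not tested for binding.

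Compared per length, in TPM (the deposited abundance, scaled by transcript length and library), the 8 genes fell into a high and a low set. Averaged over 15 samples, Izumo1r was at 137 TPM, Ikzf2 at 53.0 TPM and Nrp1 at 16.9 TPM, which placed them above 97.6%, 92.6% and 78.4% of the 24546 genes with any count. Ikzf4 (2.42 TPM), Foxp3 (2.04 TPM), Gpr83 (1.48 TPM), Lrrc32 (0.694 TPM) and Itgb8 (0.0513 TPM) were lower. The iNKT cells thus contained abundant transcripts for Helios and folate receptor 4 at a low mean level of Foxp3. Every one of the 8 genes had its highest tissue mean in an LN, in CPM as in TPM. Both mLN and iLN count as LNs among the 4 tissues, and the share of all genes with this pattern was not computed. The pattern is therefore a description only.

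**Figure D1:**
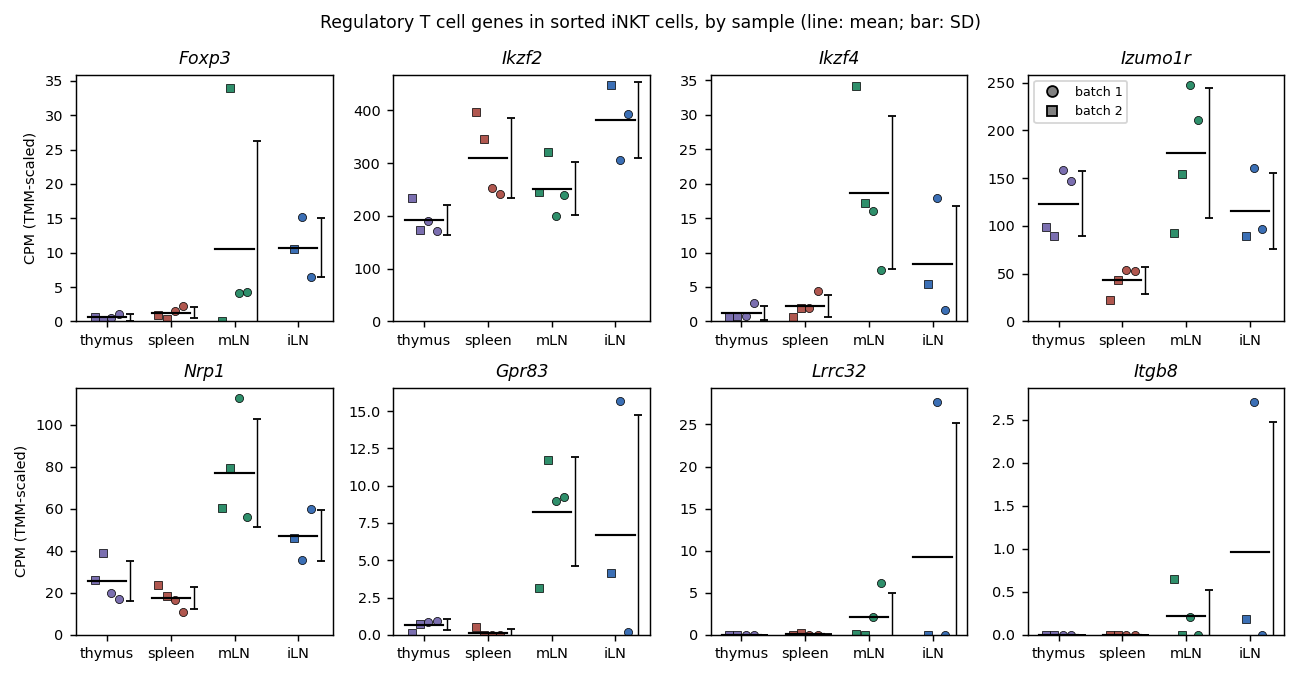
CPM (y axis, linear, normalised by TMM) of the 8 genes in each of the 15 samples by tissue (x axis), with circles for the first batch and squares for the second, a line for the tissue mean and a bar for 1 SD (n = 4, or 3 for iLN), cut at 0 where the SD exceeds the mean. Nrp1 is higher in mLN than in thymus or spleen, Izumo1r is lowest in spleen, Ikzf2 is high everywhere, and Lrrc32 and Itgb8 are at or near 0 outside the LNs.

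To ask whether LN cells differ from those of spleen and thymus, the mean of mLN and iLN was compared with the mean of spleen and thymus, with a gene called at an adjusted p under 0.01 and a fold change over 1.5 (edgeR's quasi-likelihood test with tissue and batch, Benjamini-Hochberg adjustment over 13600 genes). Nrp1, Izumo1r, Ikzf4 and Gpr83 were called higher in LNs, and no gene of the list was called lower. Of the 8 genes, 7 passed the filter on low counts, and Itgb8 did not. Those 4 calls stand beside 0.934% of all genes tested that were called higher in LNs. The list was chosen with earlier results of these data known, so the number called is a description and no test of the list. Lrrc32, Foxp3 and Gpr83 could pass the filter through their LN samples alone, so the number of genes that passed is no support for the direction. For no gene of the list did all 7 LN samples lie above all 8 spleen and thymus samples, which held for 0.294% of genes tested.

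Nrp1 was higher in LNs than in spleen and thymus. Its level was 60.4, 79.7, 113 and 55.9 CPM in mLN replicates 1 to 4 and 46.3, 35.8 and 59.7 CPM in iLN replicates 2 to 4. In spleen it was 23.7, 18.5, 16.7 and 11.0 CPM and in thymus 26.0, 39.0, 20.1 and 17.1 CPM. Of the 7 LN samples 6 lay above every spleen and thymus sample, and the overlap came from thymus replicate 2, the shallowest library, where Nrp1 had 53 counts. The fold change of LNs over spleen and thymus was 3.004 (log2 1.59 ± 0.23 SE, edgeR adjusted p = 0.000285). The call held without each of the 15 samples in turn (adjusted p at most 0.00177), and the log2 difference was 1.91 within the first batch and 1.12 within the second. It was lost without replicate 3 or 4 in all tissues (edgeR adjusted p = 0.0105 and 0.0180).

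By tissue the order of Nrp1 was mLN (77.1 ± 25.8 CPM, SD, n = 4), iLN (47.2 ± 11.996, n = 3), thymus (25.5 ± 9.69, n = 4) and spleen (17.5 ± 5.24, n = 4). mLN exceeded spleen 4.52-fold (log2 2.18 ± 0.31 SE, edgeR adjusted p = 0.00124), beside 0.456% of genes called higher in mLN, and exceeded thymus 3.17-fold (log2 1.67 ± 0.31 SE, edgeR adjusted p = 0.00355), beside 0.816%. The call against thymus was lost without mLN replicate 3 (edgeR adjusted p = 0.0202) or thymus replicate 1, 3 or 4 (edgeR adjusted p = 0.0176, 0.0236 and 0.0255). It was also lost without replicate 1, 2, 3 or 4 in all tissues (edgeR adjusted p = 0.0120, 0.0134, 0.106 and 0.0327). The call against spleen was lost without replicate 2, 3 or 4 in all tissues (edgeR adjusted p = 0.0158, 0.0424 and 0.0207). With only the tissues compared in the fit, both calls were lost (edgeR adjusted p = 0.0107 against thymus and 0.0110 against spleen). Neighbours in this order did not pass the test (edgeR adjusted p = 0.375 for iLN against mLN, 0.116 for iLN against thymus and 0.654 for thymus against spleen). iLN against spleen stood just outside the threshold (log2 1.51 ± 0.33 SE, edgeR adjusted p = 0.0119) and passed it without mLN replicate 1 or 3 (edgeR adjusted p = 0.00834 and 0.00570). Of the 5 stromal and endothelial genes, Cdh5, Kdr, Pdpn and Col1a1 were at 0 in all 7 LN samples, and Pecam1 alone gave the list's 65.9 to 102 CPM, against 26.9 to 57.1 CPM for the list in spleen and thymus. The dendritic cell list was at 13.1 to 30.5 CPM in LNs and 16.3 to 62.0 CPM in spleen and thymus. Most of it came from Zbtb46 and Xcr1 (means of 9.27 and 11.9 CPM in mLN and 9.60 and 10.5 CPM in iLN). Flt3 and Itgax were at 0 in all iLN samples and reached 3.76 and 0.208 CPM in mLN. Siglech had means of 0.136 CPM in mLN, 0.0570 in iLN, 0.495 in spleen and 0 in thymus. The part of stromal, endothelial and dendritic cells in the level of Nrp1 was not tested.

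Izumo1r behaved differently from Nrp1, in that thymus was on the side of the LNs. It measured 92.6, 154, 247 and 211 CPM in mLN, 89.2, 161 and 96.8 CPM in iLN, 99.0, 89.7, 158 and 147 CPM in thymus and 22.8, 42.98, 53.6 and 52.5 CPM in spleen. All 11 samples from thymus and LNs lay above all 4 spleen samples, a pattern whose share over all genes was not computed. The means were 176 ± 67.8 CPM in mLN, 124 ± 34.2 in thymus, 116 ± 39.6 in iLN and 42.96 ± 14.3 in spleen (SD, n = 4, 4, 3 and 4). Relative to spleen, mLN was 4.04-fold higher (log2 2.01 ± 0.22 SE, edgeR adjusted p = 0.000102), thymus 2.88-fold higher (log2 1.53 ± 0.22 SE, edgeR adjusted p = 0.000292), beside 0.779% of genes called higher in thymus, and iLN 2.52-fold higher (log2 1.33 ± 0.23 SE, edgeR adjusted p = 0.00198), beside 0.963% of genes called higher in iLN.

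The first 2 of these calls for Izumo1r held without each of the 15 samples in turn, and that of iLN was lost without spleen replicate 4 (edgeR adjusted p = 0.0111), iLN replicate 2 (0.0183) or iLN replicate 3 (0.0122). Without replicate 3 in all tissues, all 3 calls over spleen were lost (edgeR adjusted p = 0.0144 for mLN, 0.0144 for thymus and 0.0699 for iLN). Thymus, mLN and iLN were not separated, with log2 differences of 0.49 ± 0.21 SE for mLN over thymus (edgeR adjusted p = 0.301), -0.19 ± 0.23 SE for iLN over thymus (edgeR adjusted p = 0.731) and -0.68 ± 0.23 SE for iLN over mLN (edgeR adjusted p = 0.160). The call of Izumo1r for LNs over spleen and thymus (1.88-fold, log2 0.91 ± 0.16 SE, edgeR adjusted p = 0.00156) therefore combined a large difference from spleen with a small one from thymus. It held without each sample in turn (edgeR adjusted p at most 0.00781), and within batches the log2 difference was 0.91 and 0.92. The call for LNs was lost without replicate 2, 3 or 4 in all tissues (edgeR adjusted p = 0.0138, 0.0686 and 0.0217). With no batch term in the fit, the calls of Izumo1r for thymus and iLN over spleen and for LNs were lost (edgeR adjusted p = 0.0112, 0.0248 and 0.0238).

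**Figure D2:**
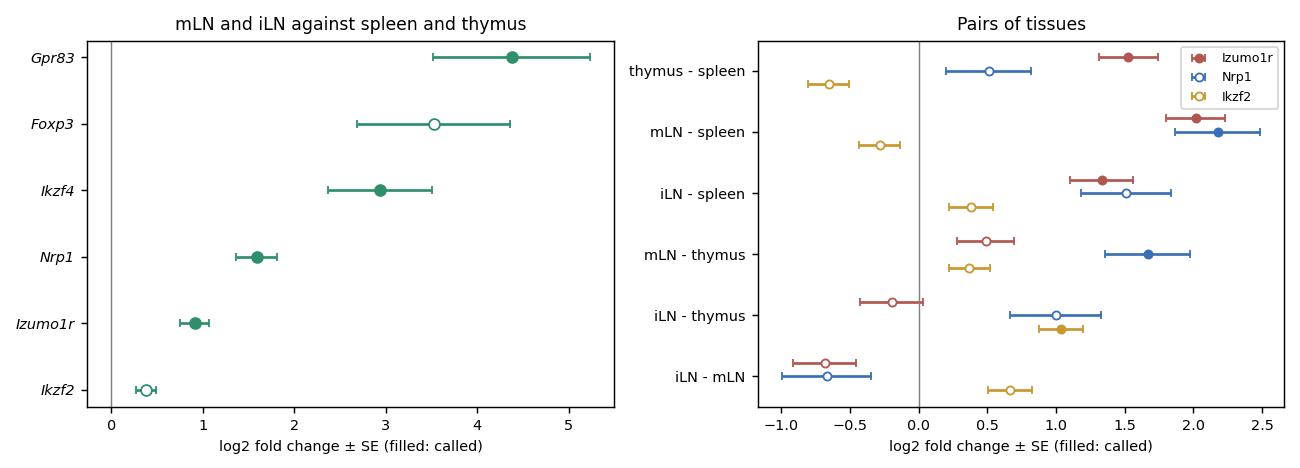
Left, log2 fold change ± SE (x axis) of LNs over spleen and thymus for 6 genes of the list, without Lrrc32, whose fitted value depends on the prior count; right, the same for Izumo1r, Nrp1 and Ikzf2 in the 6 pairs of tissues (y axis, first minus second). Filled points passed an adjusted p under 0.01 and a fold change over 1.5, and Nrp1 is filled against spleen and thymus only for mLN, whereas Izumo1r is filled in all 3 comparisons with spleen.

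Gpr83, the neighbour of Izumo1r, was far lower and came almost wholly from LN samples. Its counts were 24, 81, 43 and 48 in mLN replicates 1 to 4 and 23, 58 and 1 in iLN replicates 2 to 4. They were 1, 1, 3 and 5 in thymus and 5, 0, 0 and 0 in spleen. The levels were 8.26 ± 3.66 CPM in mLN (SD, n = 4), 6.67 ± 8.08 in iLN (n = 3) and 0.658 ± 0.367 in thymus (n = 4), and spleen replicate 1 alone among the spleen samples gave counts (0.494 CPM). Of the 7 LN samples 6 were above every spleen and thymus sample, the exception being iLN replicate 4 at 0.171 CPM, a library of 5360793 counts.

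For Gpr83 the log2 fold change of LNs over spleen and thymus was 4.37 ± 0.85 SE (edgeR adjusted p = 0.00476). At these counts the call was sensitive to the samples included. It was lost without any of 10 samples (edgeR adjusted p between 0.0106 and 0.0208, highest without iLN replicate 3), namely thymus replicates 1 to 4, spleen replicates 2, 3 and 4, mLN replicates 2 and 3 and iLN replicate 3, with the direction kept in each. The log2 value itself was 3.55 without iLN replicate 3 and 5.94 without spleen replicate 1. The call was also lost without replicate 2, 3 or 4 in all tissues (edgeR adjusted p = 0.0558, 0.139 and 0.0244). Within batches the log2 difference was 2.98 and 3.09. No pair of tissues was called for Gpr83 by edgeR with the filter on low counts, mLN against spleen being the nearest (edgeR adjusted p = 0.0310, and 0.00879 without iLN replicate 4). DESeq2 called Gpr83 higher in mLN and in iLN than in spleen (adjusted p = 0.000442 and 0.00174), as did edgeR with no filter (edgeR adjusted p = 1.94e-05 and 0.000185).

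Foxp3 was present at low level in most samples. Counts were 0, 234, 20 and 22 in mLN, 59, 56 and 38 in iLN, 10, 2, 6 and 11 in spleen and 5, 0, 2 and 6 in thymus. As levels these were 0, 33.95, 4.16 and 4.24 CPM in mLN and 10.6, 15.2 and 6.50 CPM in iLN, against at most 2.24 CPM in spleen and 1.14 CPM in thymus. All 3 iLN samples and 3 of the 4 mLN samples thus lay above every spleen and thymus sample, and mLN replicate 1, with 7914302 counts the deepest LN library, had none, which allows up to 0.389 CPM by counting error alone. Foxp3 was not called in any comparison by edgeR with the filter on low counts, and this depended on the settings.

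The log2 fold change of Foxp3 for LNs over spleen and thymus was 3.52 ± 0.84 SE with an edgeR adjusted p of 0.0194. It passed the threshold without mLN replicate 1 (log2 3.70, edgeR adjusted p = 0.00152), and fell to 2.32 on the log2 scale without mLN replicate 2 (edgeR adjusted p = 0.0731). With all samples, Foxp3 was called for LNs by DESeq2 (log2 3.62, adjusted p = 0.000267), by edgeR with no filter (log2 3.52, edgeR adjusted p = 1.89e-07) and by edgeR on libraries thinned to the smallest total (log2 4.54, edgeR adjusted p = 0.00670). With replicate number in place of batch in the fit, it was not called (log2 2.77, edgeR adjusted p = 0.143). Over 26 alternatives the log2 value lay between 1.72 and 4.54, with an edgeR adjusted p of up to 0.318. Among pairs, iLN against thymus came nearest (log2 3.97 ± 1.23 SE, edgeR adjusted p = 0.0892, and 0.000272 with no filter). Within batches the LN difference was 2.10 and 3.05 on the log2 scale. iLN and mLN had almost the same mean (10.8 ± 4.34 and 10.6 ± 15.7 CPM, SD, n = 3 and 4), with a much wider spread in mLN. Foxp3 overlaps Ccdc22, Ppp1r3f and Gm36995 on the opposite strand, and whether the counting used strand is not given in the sources used here, so reads in the shared stretches could belong to either. It also overlaps Flicr on its own strand, which had 100 counts in all, 59 of them in thymus replicate 1, and which counting by strand could not separate from Foxp3.

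The Treg marker list (Foxp3, Il2ra, Ctla4, Ikzf2, Tnfrsf18 and Cd4) shares Foxp3 and Ikzf2 with the genes studied, and it was used for levels only. It summed to 581 to 875 CPM in the 7 LN samples, 564 to 831 CPM in spleen and 323 to 498 CPM in thymus, and none of its 6 genes was at 0 in all samples of a tissue. Most of the sum came from Ikzf2, Cd4 and Il2ra (means of 310, 189 and 129 CPM in spleen and 252, 279 and 103 in mLN). Foxp3 and Ctla4 gave little of it, with means of 1.25 and 1.99 CPM in spleen, 10.6 and 9.60 in mLN and 10.8 and 3.95 in iLN. The sum therefore says little of Foxp3 or Ctla4. Whether conventional Treg cells had a part in the levels of Foxp3 was not tested.

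Within the Ikaros family Ikzf4 was the gene that separated LNs. Its expected counts were 263, 118, 77.1 and 39.0 in mLN and 29.7, 65.7 and 10.1 in iLN, against 7.02, 13.3, 8.01 and 21.98 in spleen and 4.98, 1, 3 and 14.01 in thymus. In CPM the means were 18.7 ± 11.1 in mLN, 8.32 ± 8.48 in iLN, 2.28 ± 1.58 in spleen and 1.21 ± 0.969 in thymus (SD, n = 4, 3, 4 and 4). Of the 7 LN samples, 6 exceeded every spleen and thymus sample, and iLN replicate 4 (1.71 CPM) did not. Ikzf4 was also the only gene of the list with fractional counts, as fragments shared with other genes were divided between them.

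LNs exceeded spleen and thymus 7.65-fold in Ikzf4 (log2 2.94 ± 0.56 SE, edgeR adjusted p = 0.00427), and mLN exceeded thymus (log2 4.05 ± 0.84 SE, edgeR adjusted p = 0.00843). Both calls of Ikzf4 depended on the samples included. The call for LNs was lost without any of 7 samples, thymus replicates 1 to 3, spleen replicates 1 to 3 and iLN replicate 3 (edgeR adjusted p between 0.0107 and 0.0309), the last of which lowered the log2 value to 2.28. That for mLN over thymus was lost without any of 11 samples, all of thymus, spleen replicates 2 to 4, mLN replicates 1 to 3 and iLN replicate 2 (edgeR adjusted p between 0.0112 and 0.0526), and the log2 value was 4.69 without thymus replicate 4. Without replicate 1, 2 or 3 in all tissues, both calls were lost. The edgeR adjusted p was then 0.0380, 0.0432 and 0.157 for LNs and 0.0850, 0.0811 and 0.109 for mLN over thymus. The direction was kept in each, and within batches the LN difference of Ikzf4 was 1.73 and 3.23 on the log2 scale. Neighbouring tissues in its order did not pass the test (edgeR adjusted p = 0.476 for iLN against mLN, 0.241 for iLN against spleen and 0.847 for thymus against spleen).

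Ikzf2 was high in all tissues, from 172 to 448 CPM. It measured 448, 306 and 392 CPM in iLN, 398, 347, 252 and 242 CPM in spleen, 246, 322, 201 and 239 CPM in mLN and 234, 174, 191 and 172 CPM in thymus. The iLN samples lay above all thymus samples, a pattern whose share over all genes was not computed, while iLN, spleen and mLN overlapped. iLN exceeded thymus 2.05-fold (381.8 ± 71.6 against 192.6 ± 28.7 CPM, SD, n = 3 and 4, log2 1.04 ± 0.16 SE, edgeR adjusted p = 0.000639), beside 0.875% of genes called higher in iLN. The call held without each of the 15 samples in turn (edgeR adjusted p at most 0.00539) and was lost with no batch term (edgeR adjusted p = 0.0177). It was also lost without replicate 2, 3 or 4 in all tissues (edgeR adjusted p = 0.0154, 0.0117 and 0.0443). Thymus against spleen (log2 -0.65 ± 0.15 SE, edgeR adjusted p = 0.0177) and iLN against mLN (log2 0.66 ± 0.16 SE, edgeR adjusted p = 0.0421) did not pass, and LNs against spleen and thymus gave log2 0.38 ± 0.11 SE (edgeR adjusted p = 0.0577).

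Between iLN and mLN none of the 7 genes tested was called by edgeR's quasi-likelihood test, beside 0.471% of all genes, while 2 of them, Ikzf2 and Izumo1r, had an unadjusted p under 0.05, and DESeq2 called 1, Ikzf2. The NKT2 marker list (Zbtb16, Il17rb, Il4, Icos, Gata3 and Cd4) was at 1278 to 1599 CPM in iLN and 626 to 1359 CPM elsewhere, and the NKT1 marker list (Tbx21, Klrb1c, Il2rb, Ifng and Klrd1) at 927 to 1533 CPM in LNs and 1262 to 2460 CPM in spleen and thymus. The part of the iNKT subsets in the levels of Ikzf2 and the other genes was not tested.

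The mean transcript length of Ikzf2, which RSEM weights by the abundance of each annotated transcript, set iLN apart, whereas its level overlapped between iLN, spleen and mLN. It was 6501, 5940 and 6170 bases in iLN replicates 2 to 4, and between 6546 and 8123 bases in the other 12 samples. All 3 iLN samples thus lay below all others (6204 ± 282 against 7283 ± 437 bases, SD, n = 3 and 12). Of the 1703 genes with several transcripts and at least 100 counts in every sample, 12 genes (0.705%) had this pattern. The measure was picked after its values had been seen, so no test is given. Ikzf2 overlaps Gm28112 and Gm29112 on its own strand and Gm29114 on the other.

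**Figure D3:**
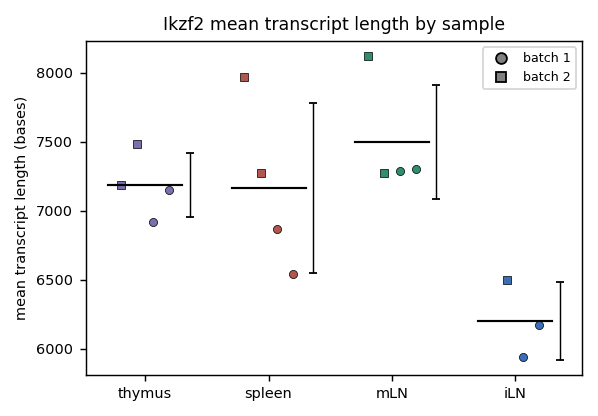
Mean transcript length of Ikzf2 in bases (y axis, not starting at 0) in each sample by tissue, with circles for the first batch, squares for the second, a line for the mean and a bar for 1 SD (n = 4, or 3 for iLN). The 3 iLN samples lie between 5940 and 6501 bases, below the other 12.

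Over the 4 tissues together, Izumo1r (edgeR adjusted p = 5.10e-05), Nrp1 (0.000357), Ikzf2 (0.00147) and Ikzf4 (0.00764) were called, beside 3.38% of all genes. Gpr83 (edgeR adjusted p = 0.0154), Foxp3 (0.0679) and Lrrc32 (0.155) were not.

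The genes of TGF-β activation in the list were at the edge of detection. Lrrc32 had 102 counts in iLN replicate 3 (27.6 CPM), 32 in mLN replicate 4 (6.16 CPM), 10 in mLN replicate 3 (2.08 CPM) and 1 each in mLN replicate 1 and spleen replicate 2. It was at 0 in the other 10 samples, including all 4 of thymus. LNs against spleen and thymus gave an edgeR adjusted p of 0.0660, and of 1 without iLN replicate 3, and the nearest pair was iLN against thymus (edgeR adjusted p = 0.120). All of its counts above 1 were in the first batch. No fold is given, since the fitted value against samples at 0 depends on the prior count.

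Itgb8 had 17 counts in all, 10 in iLN replicate 3, 5 in mLN replicate 1 and 1 each in mLN replicate 3 and iLN replicate 2. In spleen and thymus it was at 0 in all 8 samples, which allows between 0.296 and 2.21 CPM per library by counting error alone. Itgb8 did not pass the filter, so no difference was tested. Among the αv and TGF-β partners, Itgav was at 45.8 ± 15.9 CPM in thymus, 55.6 ± 16.8 in spleen, 57.9 ± 15.7 in mLN and 74.1 ± 4.35 in iLN (SD, n = 4, 4, 4 and 3), and Tgfb1 at 87.8 ± 36.5, 84.8 ± 13.8, 87.1 ± 17.2 and 126 ± 38.5 CPM. Neither passed the test for LNs against spleen and thymus (edgeR adjusted p = 0.252 and 0.402).

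The low-level genes did not peak in the same LN sample. Foxp3 was highest in mLN replicate 2, Ikzf4 in mLN replicate 1, and Gpr83, Lrrc32 and Itgb8 in iLN replicate 3. The sample with the most Ikzf4 was the LN sample with no count of Foxp3, and mLN replicate 2, with the most Foxp3, had no count of Lrrc32 or Itgb8.

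**Figure D4:**
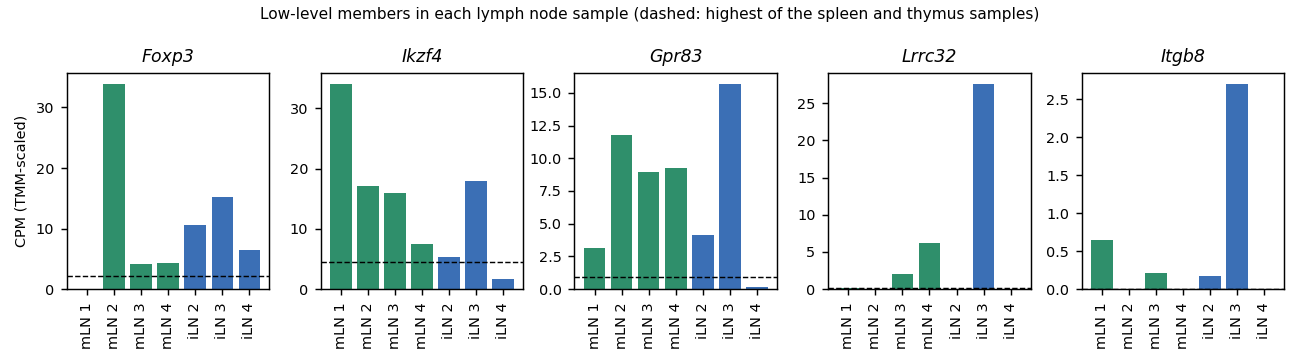
CPM (y axis, linear, a scale per gene) of the 5 low-level genes in the 4 mLN (green) and 3 iLN (blue) samples, with a dashed line at the highest of the 8 spleen and thymus samples. Foxp3 peaks in mLN replicate 2 (33.95 CPM), Ikzf4 in mLN replicate 1 (34.1 CPM), and Gpr83, Lrrc32 and Itgb8 in iLN replicate 3.

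Genes of the surrounding pathways were described by lists, for LNs against spleen and thymus, where 0.934% of all genes tested were called higher and 0.787% lower, with a median log2 difference of 0.02 over all genes. Of 19 Treg surface and receptor genes tested, 6 were called higher and 1 lower (median 0.52). The 3 with the smallest adjusted p were Il2ra (CD25, the IL-2 receptor α-chain, log2 2.09 ± 0.17 SE, edgeR adjusted p = 1.60e-06), Ccr4 (a chemokine receptor, log2 1.25 ± 0.17 SE, 0.000194) and Icos (a costimulatory receptor, log2 0.82 ± 0.12 SE, 0.000290). Icos was at 407 ± 81.3 CPM in thymus, 294 ± 64.4 in spleen, 406 ± 77.3 in mLN and 864 ± 128 in iLN (SD). It was thus high in iLN, while mLN was not separated from thymus (edgeR adjusted p = 0.987) or spleen (0.177). Il2ra was at 9.98 ± 4.22 CPM in thymus, 128.6 ± 22.8 in spleen, 103 ± 12.9 in mLN and 242 ± 64.1 in iLN (SD, n = 4, 4, 4 and 3), so that mLN and spleen overlapped (edgeR adjusted p = 0.632) and thymus stood far below both. Ctla4, an inhibitory receptor, was at 0.161 ± 0.190, 1.99 ± 0.862, 9.60 ± 4.67 and 3.95 ± 5.18 CPM in the same order of tissues and did not pass for LNs (log2 3.01 ± 0.67 SE, edgeR adjusted p = 0.0125). Tnfrsf18 (GITR) was at 51.3 ± 13.4, 72.6 ± 6.78, 55.3 ± 22.9 and 22.4 ± 6.90 CPM and went the other way without passing (log2 -0.79 ± 0.22 SE, edgeR adjusted p = 0.0453).

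Of 27 regulators of Foxp3 tested, 2 were called higher in LNs (median 0.21). They were Nr4a1 (Nur77, induced by TCR signals, log2 3.21 ± 0.45 SE, edgeR adjusted p = 0.000229) and Runx1 (a partner of Foxp3, log2 0.62 ± 0.10 SE, edgeR adjusted p = 0.00115). Nr4a1 was at 2.05 ± 0.602 CPM in thymus, 3.70 ± 3.22 in spleen, 28.9 ± 12.3 in mLN and 22.01 ± 8.10 in iLN (SD, n = 4, 4, 4 and 3), with every LN sample above every other sample. Runx1 had means of 113 CPM in thymus, 233 in spleen, 252 in mLN and 238 in iLN. For Runx1 neither mLN nor iLN was separated from spleen (edgeR adjusted p = 0.84 and 0.77), so its call for LNs came from the low level in thymus. The genes Il2ra, Ctla4 and Tnfrsf18, which mark Treg cells beside Foxp3, thus had 3 different orders of tissues.

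**Figure D5:**
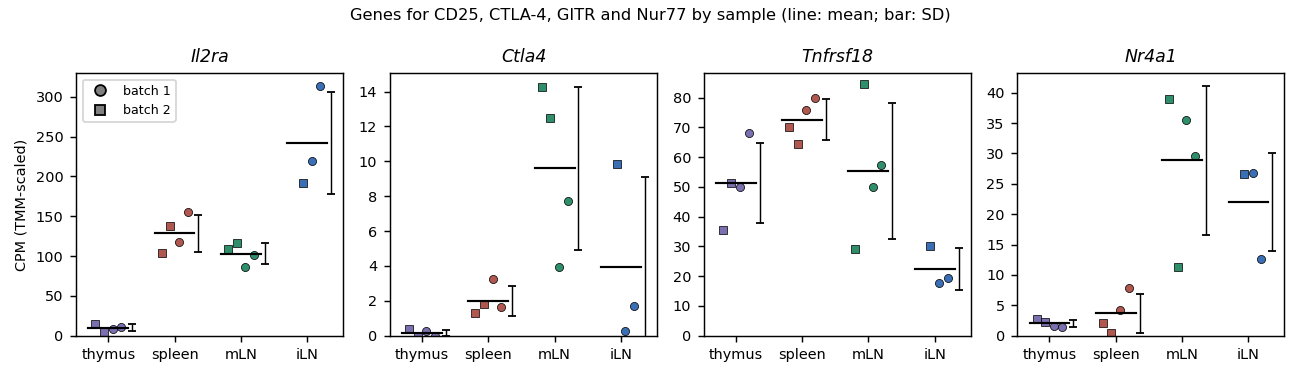
CPM (y axis, linear) of Il2ra, Ctla4, Tnfrsf18 and Nr4a1 in each sample by tissue, drawn as in the plot of the 8 genes (line, mean; bar, 1 SD, cut at 0; n = 4, or 3 for iLN). Il2ra is lowest in thymus, Tnfrsf18 is lowest in iLN, and Nr4a1 is higher in every LN sample than in any sample of spleen or thymus.

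Of the 5 Ikaros family genes, Ikzf4 alone was called in LNs (family median 0.20). Ikzf1 (Ikaros) was between 606 and 1069 CPM in all samples and Ikzf3 (Aiolos) between 448 and 1336 CPM, and they did not pass for LNs (edgeR adjusted p = 0.396 and 0.411). Ikzf3 was higher in iLN than in mLN (log2 0.96, edgeR adjusted p = 0.00672). Of 9 neuropilin, semaphorin and plexin genes, Nrp1 and Plxnd1 (a semaphorin receptor, log2 2.57 ± 0.52 SE, edgeR adjusted p = 0.00656) were called higher (median 0.30), and Nrp2, the close relative of Nrp1, was between 2.75 and 11.97 CPM in all samples (edgeR adjusted p = 0.794). Plxnd1 was at 0.828 ± 0.881 CPM in thymus, 2.69 ± 2.23 in spleen, 2.72 ± 2.21 in mLN and 21.6 ± 7.09 in iLN (SD). It was thus high in iLN only, and mLN was not separated from spleen (edgeR adjusted p = 0.974). Of 11 genes of TGF-β activation and signalling that were tested, Tgfbr3 (betaglycan, a TGF-β co-receptor) was called higher (log2 1.87 ± 0.24 SE, edgeR adjusted p = 0.000121, list median 0.25). Tgfbr3 was at 28.4 ± 14.4 CPM in thymus, 8.69 ± 4.13 in spleen, 35.7 ± 7.66 in mLN and 98.5 ± 20.2 in iLN (SD). For this gene mLN was not separated from thymus (edgeR adjusted p = 0.686). Of 4 suppressive mediators tested, Fgl2 (a secreted fibrinogen-like protein) was called lower (log2 -1.22 ± 0.16 SE, edgeR adjusted p = 0.000165, list median -0.68), with 408 ± 40.9 CPM in thymus (SD, n = 4) against means of 77.7 to 80.4 CPM in the other tissues. Izumo1r was the only one of 3 folate receptor genes that passed the filter, Folr1 having 1 count and Folr2 86 counts in all.

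The genes whose levels were most like those of a member across the 15 samples were sought among 10145 other genes with a mean of at least 5 CPM (Pearson's r of log2 CPM with batch removed). The samples share library, depth and tissue, so that r is given as a description. For Nrp1 these were Igfbp4 (r = 0.92), Nup153 (0.91) and St8sia6 (0.88), and for Izumo1r St8sia1 (0.92), Elk4 (0.92) and Ephx1 (0.92). Ikzf2 was most like Il17ra (0.93), Nr1d1 (0.91) and Ero1l (0.90), Ikzf4 most like Pik3c2b (0.93), Mark2 (0.91) and Lef1 (0.89), and Foxp3 most like Rab5b (0.92), Nelfa (0.89) and Tmed10 (0.89). No member was among the 3 genes closest to another. The closest members were Nrp1 and Izumo1r (r = 0.70, rank 149 of the genes searched for Nrp1), and Foxp3 reached 0.61 with Ikzf2, 0.47 with Nrp1, 0.46 with Ikzf4 and 0.31 with Izumo1r.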

How the data were processed

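RNAseq of sorted iNKT cells was analysed in 15 samples. Libraries were made with the NuGEN Ovation Ultralow kit and sequenced as paired ends. The authors trimmed reads with Cutadapt 1.7.1 and ran RSEM 1.2.31 with Bowtie2 2.2.9 on GRCm38.p6. The deposited expected counts are RSEM's estimated fragment numbers per gene, in which a fragment that fits more than 1 gene is divided among them. The deposited TPM values are these estimates per effective transcript length, relative to the total of the sample. The deposited length is the mean transcript length that RSEM weighted by abundance, a score in bases and other than a count. Of 48795 gene identifiers, 48349 were matched to a symbol in GENCODE M21.

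For the fit, each expected count was rounded to an integer. Genes were filtered with filterByExpr of edgeR 4.0.16 (limma 3.58.1, R 4.3.3), which left 13600, normalised by TMM (factors between 0.755 and 1.18) and fitted with the robust quasi-likelihood model with tissue and batch, over all 15 samples. Calls required a Benjamini-Hochberg adjusted p under 0.01 and a fold change over 1.5 (over the 4 tissues together, at the adjusted p alone). CPM are per TMM-scaled library. Within-batch differences and correlations used log2 CPM with a prior count of 2. The fit was tested on simulated data. The alternatives were RLE normalization, other filters, no batch term, the replicate block, only the tissues compared, DESeq2 1.42.0, no mitochondrial genes, thinned libraries and leaving out replicates. Leaving out each sample in turn, and the transcript length of Ikzf2, were added after seeing the data. Summaries and plots were made in Python 3.11.15 (matplotlib 3.10.9, scipy 1.17.1, pandas 2.3.3, numpy 2.4.6).

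The 8 genes and the gene lists were chosen with earlier results of these data known. Every gene of the 8 is named. Genes of the other lists are named where called (at most 3 per list, by adjusted p), with Tgfb1, Itgav, Nrp2, Ikzf1, Ikzf3, Il2ra, Ctla4 and Tnfrsf18 named in any case. iLN replicate 1 was not analysed here. The levels of the NKT17 marker list are not reported here.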

Additional observations from a re-analysis of the deposited data

Results flagged for a closer look

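In tissues with 4 samples, a sample was set apart where its gap to the nearest other sample took up most of the range of its tissue (Dixon's criterion). Chance meets the criterion in about 1 of 20 groups of normally distributed values. Counts near 0 are not so distributed, so the number flagged cannot be set against that rate. Of 21 groups tested, 4 met it. Foxp3 in mLN replicate 2 stood at 33.95 CPM (234 counts), with the other mLN samples between 0 and 4.24 CPM. Ikzf4 in thymus replicate 4 stood at 2.66 CPM (14.01 counts), with the other thymus samples between 0.617 and 0.826 CPM. Gpr83 in spleen replicate 1 stood at 0.494 CPM (5 counts) and Lrrc32 in spleen replicate 2 at 0.150 CPM (1 count), with the other 3 spleen samples at 0 in each case. The last 2 rest on 5 counts or fewer, and any count beside 3 samples at 0 meets the criterion. Spleen replicate 1 also held the most B cell transcripts (116 CPM summed), and the part of other cells in its Gpr83 counts was not tested.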

How the results depend on the processing

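Over the 6 pairs of tissues 7 calls were made for the 8 genes. There were 17 calls with no filter on low counts, 14 with DESeq2, 4 with only the tissues compared in the fit and 3 with no batch covariate. With no filter 7 genes were called over the 4 tissues together in place of 4. For LNs against spleen and thymus 4 genes were called, and 2 with at least 10 counts in every sample, where 3 of the 8 genes remained to be tested. Leaving out samples (each replicate number in all tissues, or each sample) gave between 0 and 8 calls over the pairs, between 0 and 5 for LNs against spleen and thymus, and between 1 and 5 over the 4 tissues together. The lowest values came without replicate 3, where edgeR called 0 genes for LNs while 6 had an unadjusted p under 0.05. Nrp1 was not called for LNs without replicate 3 or 4 in all tissues (edgeR adjusted p = 0.0105 and 0.0180). Izumo1r was not called for LNs without replicate 2, 3 or 4 in all tissues (edgeR adjusted p = 0.0138, 0.0686 and 0.0217). Over all genes, 234 were called for LNs against spleen and thymus, 532 with no filter, 494 with DESeq2 and between 54 and 255 with samples left out, and 459 over the 4 tissues together, 1134, 1090 and between 138 and 493 respectively. All 8 genes had their highest tissue mean in an LN with TPM and with unrounded counts too, a pattern whose share over all genes was not computed. No fold change of the 8 genes that was recomputed changed sign under any alternative, and those of genes of the other lists were not recomputed. RLE normalization and leaving out mitochondrial genes kept the number of calls at 7, 4 and 4, and thinned libraries gave 8, 5 and 4. A fit with only the tissues compared cannot be made for LNs against spleen and thymus or for the 4 tissues together.

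The labels do not say whether samples with the same replicate number share an animal, and they were not treated as pairs. Their deviations from the tissue means correlated at 0.0015 in the lowest of 21 pairs (mean 0.122, against 0.107 for other pairs of the same batch), while 13 of 15 samples correlated best with their own number, which is a hint from the data and not the design. With the replicate block in place of batch 6 calls were made over the pairs, 2 genes (Nrp1 and Izumo1r) were called for LNs against spleen and thymus, and 3 over the 4 tissues together. The calls not made under the block were those of Ikzf4 and Gpr83 for LNs (edgeR adjusted p = 0.0176 and 0.0211) and, among pairs, of Ikzf4 for mLN over thymus (edgeR adjusted p = 0.0219), as well as that of Ikzf4 over the 4 tissues together.

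In the shallowest library, thymus replicate 2, a count of 0 allows up to 2.21 CPM, which limits what can be said of Foxp3, Ikzf4, Gpr83, Lrrc32 and Itgb8 in thymus. Intervals of this kind cover counting error only.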
